A study of Mus musculus with 12 samples.

Results

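The genes described here are those of the MAP kinase cascade and of the dual-specificity phosphatases. They were chosen by their mouse symbols alone, as every gene named Mapk, Map2k, Map3k, Map4k or Dusp followed by a number and nothing else. The rule names 67 genes in the gene table, and probes on the arrays were matched for 61 of them, out of 25128 genes and unnamed targets measured in all. The 61 members are all 13 MAP kinases, all 7 MAP2 kinases, 15 of 18 MAP3 kinases, 3 of 5 MAP4 kinases and 23 of 24 dual-specificity phosphatases. The other 6 (Dusp5, Map3k10, Map3k15, Map3k19, Map4k3 and Map4k5) were not analysed here.

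MAP kinases are the last of a chain of protein kinases that pass signals from receptors at the cell surface to the nucleus. A MAP4 kinase or a small G protein switches on a MAP3 kinase, which phosphorylates a MAP2 kinase, which in turn phosphorylates a MAP kinase on a threonine and a tyrosine. The ERK branch responds mainly to growth factors, and the JNK and p38 branches respond mainly to stress and to inflammatory signals. Dual-specificity phosphatases of the MAP kinase phosphatase group remove both phosphates, and several of their genes are themselves switched on by the pathway, which makes them feedback inhibitors. In microglia the p38 and ERK branches are known for their part in the response to bacterial products, and in neurons the JNK branch is known for its part in axon growth and in the response to injury.

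The mouse cell lines compared were BV2, an immortalized microglial line, N18, a neuroblastoma line used as a model of neurons, and AtT20, a line from a pituitary tumour used as a neuroendocrine model. Each line was grown on 4 separate plates in DMEM with 10% fetal bovine serum and antibiotics, without any treatment, and the culture of BV2 was meant to keep the cells in a resting state. Total RNA from each plate was labelled with Cy3 and hybridized to 1 single-color NimbleGen array. Each line is a single established culture, so the 4 plates of a line measure the spread between plates and not between animals. A lower signal on a plate can come from fewer cells that hold a transcript or from less of it per cell, and these cannot be told apart.

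With 4 arrays per line, precision is limited by their number. The plates labelled AtT20 stood apart from the others. Their arrays had higher median log2 intensities (10.85 to 11.50, against 9.90 to 10.28 in BV2 and 10.10 to 10.54 in N18) and a narrower interquartile range (0.38 to 0.78, against 1.28 to 1.73 and 1.91 to 2.21). Of 14 microglial marker genes measured, 11 were above the detection threshold in BV2 (the threshold is explained with the detected members), 2 on the plates labelled AtT20 and 3 in N18. Of all genes and targets, 53.3% were above it in BV2, 35.0% on the plates labelled AtT20 and 55.4% in N18. Of 15 neuroblastoma markers, 13 were above it in N18, 6 in BV2 and 8 on the plates labelled AtT20. Of 12 corticotroph markers only 2 were above it on the plates labelled AtT20, with Pomc and Tbx19 below it, against 7 in N18. For this reason N18 and BV2 are compared first. A slide carries 4 arrays, and which plates shared a slide is not known here, so that slide and cell line cannot be told apart.

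Between N18 and BV2, the p38 kinases Mapk12 and Mapk11 and the ERK kinase Mapk3 were higher in N18. The p38-activating kinases Map2k6 and Map2k3 and the phosphatases Dusp2 and Dusp16 were higher in BV2. Values were log2 intensities after quantile normalization of the 12 arrays, and every difference from here on is a log2 difference, N18 minus BV2, with the SE of a limma fit over all genes. A gene was called at a Benjamini-Hochberg adjusted p under 0.05. Of the 61 members, 36 were called (59.0%), against 40.9% of all genes and targets. Of these 36, 17 were higher in N18 (19.0% of all genes and targets were called in that direction) and 19 were higher in BV2 (21.9% of all). The median difference was 0.00 over the members and -0.06 over all genes and targets, and the differences of the members ran from -1.64 to 2.01.

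The calls were counted by family, to be read beside the 40.9% of all genes and targets that were called. Of the 13 MAP kinases 7 were called, each higher in N18, and of the 7 MAP2 kinases 4 were called, each higher in BV2. Among the 15 MAP3 kinases 5 were higher in N18 and 6 higher in BV2, and among the 3 MAP4 kinases 1 was higher in N18 and 2 in BV2. The 23 dual-specificity phosphatases had 4 called higher in N18 and 7 higher in BV2. These are counts over few genes, and the difference between the families was not tested. With only the 8 arrays of the pair in the fit, 9 MAP kinases were called higher in N18 and 2 (Mapk6 and Mapk7) higher in BV2, and with the mean of log2 probes 7 and 1 (Mapk7). Without normalization between arrays, 10 MAP kinases were called higher in N18 and 0 higher in BV2, and the median of the MAP2 kinases moved from -0.44 to 0.02, with 2 of them called higher in BV2, and to 0.05 relative to the seminal proteins, with 1 called higher in BV2. Of the 36 called members, 3 (Dusp8, Dusp13 and Map2k7) were below the detection threshold in both lines, as were 14 members in all.

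**Figure D1:**
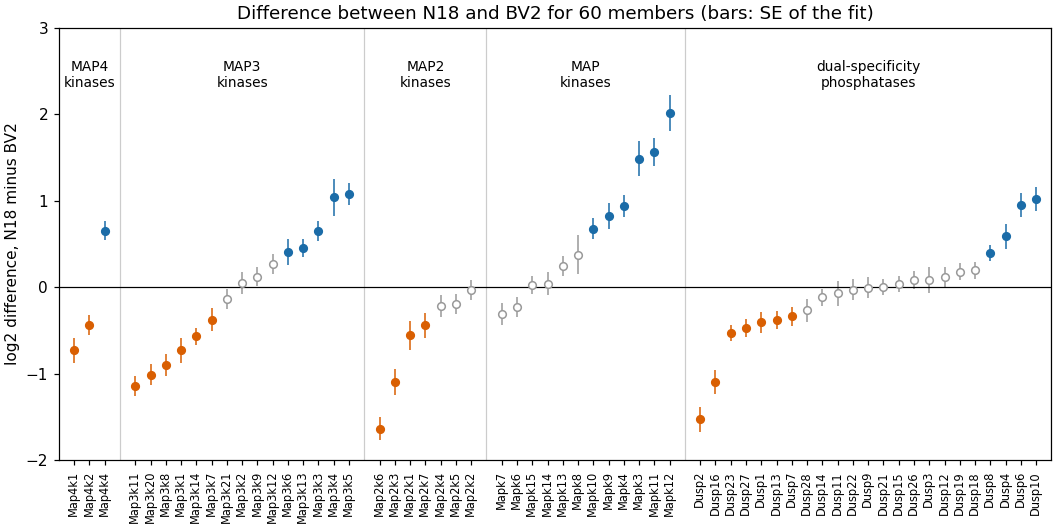
Log2 difference between N18 and BV2 (N18 minus BV2, y axis) for 60 of the 61 members, ordered by size within each family, with bars for the SE of the limma fit over 4 plates per line. Filled blue points were called higher in N18, filled orange points higher in BV2, and open grey points were not called; the 6 called MAP kinases drawn all lie above 0 and the 4 called MAP2 kinases all lie below it.

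Mapk12, which encodes p38 gamma, had the largest difference of the 61 members. Its log2 intensities on BV2 plates 1 to 4 were 11.08, 11.69, 11.63 and 11.11, and on N18 plates 1 to 4 they were 13.50, 13.42, 13.47 and 13.17. All 4 N18 plates were far above all 4 BV2 plates. The difference was 2.01 ± 0.21 (limma, adjusted p = 6.5e-07), or 4.04-fold, and each of the 3 probes of the gene pointed the same way. Mapk11, which encodes p38 beta and lies next to Mapk12 in the genome, was at 11.31, 11.35, 11.33 and 11.15 in BV2 and at 12.81, 12.90, 12.86 and 12.84 in N18. The ranges were again far apart, with a difference of 1.57 ± 0.16 (limma, adjusted p = 8.3e-07), or 2.96-fold. The other pair of p38 genes, Mapk14 and Mapk13, which are also neighbours, was not called after quantile normalization, and both were called higher in N18 under other scalings. Mapk14, which encodes p38 alpha, ran from 11.34 to 11.85 in BV2 and from 11.52 to 11.91 in N18, so that the ranges overlapped (difference 0.04 ± 0.13), but it was called at 0.61 without normalization, at 0.64 relative to 10 seminal protein genes, taken by the study as unlikely to be expressed here, and at 0.57 with the median of its probes. Mapk13, which encodes p38 delta, was below the detection threshold in both lines, with a difference of 0.24 ± 0.12 (limma, adjusted p = 0.105), and was called at 0.48 and 0.51 under the same scalings, at 0.45 after normexp background correction and at 0.32 with only the 8 arrays of the pair.

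The 250 bases before the annotated start of Mapk12 and of Mapk11 are shown because these neighbouring genes had the largest differences toward N18. They come from RefSeq, build GRCm38.p6, at chr15:89140704-89140953 for Mapk12 and chr15:89149607-89149856 for Mapk11, both on the minus strand. Capitals mark a GC box (GGGCGG or its complement CCGCCC) or an E-box (CACGTG), which are the letters bound by Sp1 family factors and by basic helix-loop-helix factors such as USF. Mapk12 holds 1 GC box and 1 E-box, and Mapk11 holds 4 GC boxes and 0 E-boxes.
Mapk12: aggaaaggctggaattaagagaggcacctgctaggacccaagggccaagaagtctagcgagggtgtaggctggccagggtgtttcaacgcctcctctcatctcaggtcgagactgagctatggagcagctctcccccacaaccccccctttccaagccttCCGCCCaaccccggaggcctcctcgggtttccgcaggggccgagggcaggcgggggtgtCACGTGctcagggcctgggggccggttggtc
Mapk11: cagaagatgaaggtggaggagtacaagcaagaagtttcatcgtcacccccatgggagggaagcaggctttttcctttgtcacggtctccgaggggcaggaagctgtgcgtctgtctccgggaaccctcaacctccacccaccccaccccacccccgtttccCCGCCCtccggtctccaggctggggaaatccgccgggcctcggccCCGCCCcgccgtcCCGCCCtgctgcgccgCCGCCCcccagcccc

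Mapk3, which encodes the kinase ERK1, was also higher in N18. It was at 12.53, 12.39, 12.21 and 12.35 on the BV2 plates and at 14.03, 13.86, 13.85 and 13.67 on the N18 plates. The lines did not overlap, and the difference was 1.49 ± 0.21 (limma, adjusted p = 1.9e-05), or 2.80-fold.

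Of the JNK kinases, Mapk9 and Mapk10 were called, and Mapk8 was called only under some alternatives. Mapk9, which encodes JNK2, ran from 10.42 to 10.68 in BV2 and from 11.22 to 11.53 in N18, a difference of 0.83 ± 0.15 (limma, adjusted p = 0.00028). Mapk10, which encodes the JNK3 known from neurons, ran from 10.67 to 11.06 in BV2 and from 11.37 to 11.64 in N18, a difference of 0.68 ± 0.12 (limma, adjusted p = 0.00032). For both genes the lines did not overlap. Of the 3 probes of Mapk10, 2 pointed this way, with probe differences from -0.20 to 1.49. Mapk9 was near the detection threshold in BV2, with 1 of its 3 probes and 3 of 4 plates above it. Mapk8, which encodes JNK1, ran from 10.48 to 11.02 in BV2 and from 10.60 to 11.37 in N18, so that the ranges overlapped (difference 0.38 ± 0.23, limma, adjusted p = 0.203). It was called higher in N18 without normalization (0.86), relative to the seminal proteins (0.89) and with only the 8 arrays of the pair (0.46).

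Of the atypical and large MAP kinases Mapk4, Mapk6, Mapk7 and Mapk15, only Mapk4 was called. Mapk4, which encodes ERK4, was above the detection threshold in N18 only, with log2 intensities of 10.37, 10.49, 10.42 and 10.35 in BV2 and 11.50, 11.46, 11.22 and 11.24 in N18. It was at least 1.7-fold higher in N18 (limma, adjusted p = 1.1e-05). Mapk6, which encodes ERK3, ran from 12.68 to 12.95 in BV2 and from 12.50 to 12.67 in N18, a difference of -0.23 ± 0.12 (limma, adjusted p = 0.147). Mapk7, which encodes the large kinase ERK5, ran from 12.93 to 13.16 and from 12.56 to 12.88, a difference of -0.31 ± 0.13 (limma, adjusted p = 0.0675). Both were above 0 without normalization, at 0.40 and 0.31, where they were not called either. Mapk15 was below the threshold in both lines, with a difference of 0.02 ± 0.11, and was called relative to the seminal proteins (0.28).

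**Figure D2:**
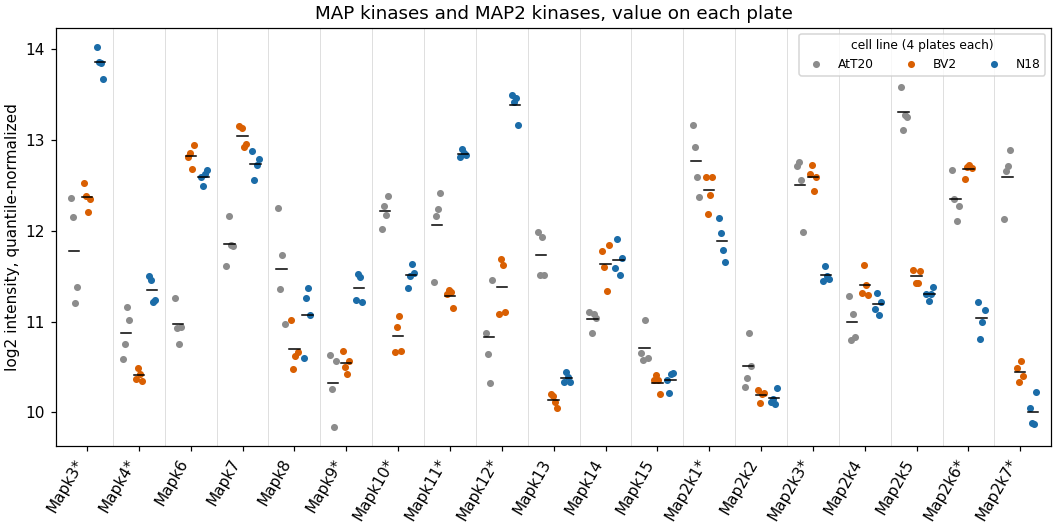
Quantile-normalized log2 intensity (y axis) of 12 MAP kinases and the 7 MAP2 kinases on each of 12 plates, with grey, orange and blue points for AtT20, BV2 and N18, a black line for the mean of 4 plates, and an asterisk on genes called between N18 and BV2. The blue points of Mapk12 (13.17 to 13.50) and Mapk11 (12.81 to 12.90) lie above all orange points, and those of Map2k6 (10.81 to 11.22) lie below them.

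The MAP2 kinases are the middle step, and the 2 that act mainly on p38, Map2k6 and Map2k3, were higher in BV2. Map2k6 was at 12.57, 12.71, 12.73 and 12.69 on the BV2 plates and at 11.22, 10.81, 11.00 and 11.13 on the N18 plates. The BV2 plates were all far above the N18 plates, with a difference of -1.64 ± 0.13 (limma, adjusted p = 3.3e-08), or 3.11-fold. All 3 probes of Map2k6 pointed this way, but their differences ran from -3.21 to -0.67, and 1 of them was above the detection threshold in N18. Under the alternatives the difference ran from -2.69 to -1.21 and was called in each. Map2k3 was at 12.63, 12.73, 12.44 and 12.60 in BV2 and at 11.45, 11.61, 11.50 and 11.47 in N18, again without overlap. Its difference was -1.09 ± 0.15 (limma, adjusted p = 1.7e-05), but with levels taken relative to the seminal proteins it was -0.55 and no longer called. Mapk11 and Mapk12 were thus higher in the line where these 2 p38-activating kinases were lower.

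The start region of Map2k6 is shown because this gene had the largest difference toward BV2. The 250 bases before the first of its 3 starts listed in RefSeq are at chr11:110398852-110399101 (GRCm38.p6, plus strand). Capitals mark an AP-1 motif (TGANTCA), the letters bound by Fos and Jun dimers. It holds 1 AP-1 motif and 0 GC boxes.
Map2k6: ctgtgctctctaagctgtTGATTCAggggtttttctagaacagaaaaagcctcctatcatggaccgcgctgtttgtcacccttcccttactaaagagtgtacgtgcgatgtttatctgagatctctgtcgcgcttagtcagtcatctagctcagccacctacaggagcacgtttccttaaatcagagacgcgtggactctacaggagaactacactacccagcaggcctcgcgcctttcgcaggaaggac

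Map2k1, which encodes the ERK-activating kinase MEK1, ran from 12.19 to 12.60 in BV2 and from 11.66 to 12.14 in N18. Its difference was -0.56 ± 0.17 (limma, adjusted p = 0.014), and it was not called without N18 plate 4 (-0.48) and changed sign to 0.02 without normalization and to 0.05 relative to the seminal proteins. Map2k2, which encodes MEK2, was below the detection threshold in all 3 lines. Map2k7, which activates JNK, was called at -0.44 ± 0.14 (limma, adjusted p = 0.0231) but was below the threshold in both N18 and BV2, so no fold is given, and it was not called without BV2 plate 1 (-0.42) or 3 (-0.39) or without N18 plate 1 (-0.43), 2 (-0.37) or 3 (-0.38), nor without normalization (-0.42), relative to the seminal proteins (-0.39) or with the median of its probes (-0.29). The other JNK activator, Map2k4, was at -0.22 ± 0.13, and Map2k5, which activates ERK5, was at -0.19 ± 0.12, and neither was called. Without normalization Map2k4 was at 0.26 and Map2k5 at 0.29, and relative to the seminal proteins they were at 0.285 and 0.32, without a call in either. With only the 8 arrays of the pair, Map2k5 was called higher in BV2.

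The MAP3 kinases, which take in signals of different kinds, went both ways. Map3k5, which encodes the oxidative stress kinase ASK1, was at 11.95, 12.03, 11.70 and 11.99 in BV2 and at 13.01, 13.00, 12.96 and 13.03 in N18. The difference of 1.08 ± 0.13 (limma, adjusted p = 3.0e-06) was far larger than the spread in either line. Map3k4, which encodes MEKK4, ran from 11.40 to 11.57 in BV2 and from 12.39 to 12.62 in N18, with a difference of 1.04 ± 0.21 (limma, adjusted p = 0.0009). Map3k3, which encodes MEKK3, ran from 11.86 to 12.20 in BV2 and from 12.55 to 12.72 in N18, with a difference of 0.65 ± 0.11 (limma, adjusted p = 0.00016). Map3k6, the relative of Map3k5 known as ASK2, was also called higher in N18, at 0.41 ± 0.15, but it was not called without any 1 of the 4 BV2 plates (0.38 to 0.43) or without N18 plate 1 (0.35), 3 (0.41) or 4 (0.39), nor with the median of its probes (0.36). The leucine zipper kinase gene Map3k13, whose product is known for its part in the response of neurons to axon injury, was above the detection threshold in N18 only and was at least 1.2-fold higher there (limma, adjusted p = 0.0026). Map3k12, which encodes the related kinase DLK, was likewise above the threshold in N18 only, with a difference of 0.27 ± 0.12 that was not called (limma, adjusted p = 0.0724). It was called without normalization (0.59), with only the 8 arrays of the pair (0.35), with the mean of log2 probes (0.28) and relative to the seminal proteins (0.62).

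On the BV2 side, Map3k11, which encodes the mixed lineage kinase MLK3, was at 13.22, 13.33, 13.21 and 13.05 in BV2 and at 12.25, 11.96, 11.92 and 12.10 in N18. The ranges lay well apart, with a difference of -1.15 ± 0.12 (limma, adjusted p = 6.0e-07). It was no longer called without normalization, at -0.53, or relative to the seminal proteins, at -0.50. Map3k8, which encodes TPL2, the kinase that leads from Toll-like receptors to ERK in macrophages, was at 11.21, 11.32, 11.12 and 11.32 in BV2 and at 10.28, 10.36, 10.36 and 10.35 in N18. It was above the detection threshold in BV2 only and at least 1.5-fold higher there (limma, adjusted p = 2.0e-05). Map3k20, which encodes ZAK, a kinase activated by stalled ribosomes, ran from 11.28 to 11.34 in BV2 and from 10.28 to 10.37 in N18, was likewise above the threshold in BV2 only, and was at least 1.6-fold higher there (limma, adjusted p = 6.2e-06). Of the 6 probes of Map3k20, 5 pointed this way, with probe differences from -2.04 to 0.03, and 4 were above the threshold in BV2. Map3k1 (MEKK1, difference -0.73 ± 0.15) and Map3k14 (the NF-kappaB-inducing kinase NIK, -0.57 ± 0.10) were called as well, but neither was called without normalization or relative to the seminal proteins. The last of the 6, Map3k7 (TAK1, -0.37 ± 0.14), was above 0 under both of those scalings, at 0.18 and 0.21, and was not called without BV2 plate 1 (-0.35), 3 (-0.37) or 4 (-0.36) or without N18 plate 1 (-0.38), 3 (-0.33) or 4 (-0.33). Map3k2, Map3k9 and Map3k21 were not called, with differences from -0.14 to 0.12, though Map3k9 was called relative to the seminal proteins (0.22).

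All 3 MAP4 kinases were called. Map4k1, a kinase known mainly from blood cells, ran from 13.10 to 13.27 in BV2 and from 12.38 to 12.56 in N18. Its difference was -0.73 ± 0.14 (limma, adjusted p = 0.00048), but without normalization between arrays it was -0.11, relative to the seminal proteins it was -0.08, and it was called in neither. Map4k2 was at -0.44 ± 0.12 (limma, adjusted p = 0.0063) and at -0.03 without normalization and 0.00 relative to the seminal proteins, where it was not called. Map4k4 ran from 13.28 to 13.48 in BV2 and from 13.94 to 14.22 in N18, a difference of 0.66 ± 0.11 (limma, adjusted p = 0.00012) that was called under every setting tried.

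The MAP kinase phosphatases remove the activating phosphates. Of the 9 measured, 8 were called (88.9%, against 40.9% of all genes and targets), 4 in each direction. Only some of these calls held under every alternative. The inducible nuclear phosphatase Dusp2, known from activated blood cells, was at 11.81, 11.78, 11.52 and 11.73 on the BV2 plates and at 10.22, 10.24, 10.14 and 10.13 on the N18 plates. It was above the detection threshold in BV2 only and at least 2.2-fold higher there (limma, adjusted p = 2.2e-07). Dusp16, which acts mainly on JNK and p38, had a mean of 11.88 ± 0.15 (SD, n = 4 plates) in BV2, with its lowest plate at 11.68, and was at 10.71, 10.88, 10.80 and 10.74 in N18. The lines were well separated, with a difference of -1.10 ± 0.14 (limma, adjusted p = 1.1e-05), or 2.14-fold. Dusp1, an early response gene, ran from 12.54 to 12.82 in BV2 and from 12.12 to 12.43 in N18. Its difference of -0.40 ± 0.12 (limma, adjusted p = 0.0137) turned to 0.22 without normalization and to 0.25 relative to the seminal proteins. Dusp7, which acts on ERK, was at -0.34 ± 0.11 (limma, adjusted p = 0.0232), and it was no longer called without BV2 plate 1 (-0.28) or without N18 plate 1 (-0.31), 3 (-0.33) or 4 (-0.30). It was nearer to 0, and not called, without normalization (-0.096), relative to the seminal proteins (-0.066) and with the median of its probes (-0.19).

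The start region of Dusp2 is shown because this phosphatase had the largest difference among those higher in BV2. The 250 bases before its RefSeq start are at chr2:127335909-127336158 (GRCm38.p6, plus strand), with capitals for GC boxes and the E-box. It holds 3 GC boxes and 1 E-box.
Dusp2: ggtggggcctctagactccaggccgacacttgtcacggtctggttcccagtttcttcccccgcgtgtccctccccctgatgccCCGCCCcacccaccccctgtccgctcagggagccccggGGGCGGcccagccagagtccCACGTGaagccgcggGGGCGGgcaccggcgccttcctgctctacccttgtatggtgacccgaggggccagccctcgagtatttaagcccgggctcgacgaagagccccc

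On the N18 side, Dusp10, which acts mainly on JNK and p38, was at 11.70, 11.71, 12.25 and 11.78 in BV2 and at 12.78, 12.87, 13.07 and 12.82 in N18. Plate 3 was the highest of its line in both, and the lines did not overlap, with a difference of 1.02 ± 0.14 (limma, adjusted p = 1.6e-05), or 2.03-fold. Dusp6, the cytoplasmic phosphatase of ERK and a feedback target of that branch, was at 13.74, 13.69, 13.66 and 13.60 in BV2 and at 14.71, 14.62, 14.54 and 14.60 in N18. Both groups were tight, and the difference was 0.95 ± 0.14 (limma, adjusted p = 3.3e-05). Dusp4, the nuclear phosphatase of ERK that is also induced by the pathway, ran from 13.17 to 13.55 in BV2 and from 13.79 to 14.20 in N18, a difference of 0.59 ± 0.15 (limma, adjusted p = 0.0043). It was not called when the median of its probes replaced the mean, at 0.33. Dusp8 was called at 0.39 ± 0.09 but was below the threshold in both lines, so no fold is given. Dusp9 was the 1 phosphatase of the group that was not called, at -0.01 ± 0.12.

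The 14 other dual-specificity phosphatases, many of which act on substrates other than MAP kinases, were mostly not called after quantile normalization. Of these 3 were called (Dusp23, Dusp27 and Dusp13), each higher in BV2, with differences of -0.53 ± 0.09, -0.47 ± 0.10 and -0.38 ± 0.10. The share called was 21.4%, against 40.9% of all genes and targets. Dusp23 kept its call under every setting tried. Dusp27 was not called without normalization (-0.22) or relative to the seminal proteins (-0.19), and Dusp13 was not called without normalization (-0.43) and was below the detection threshold in both lines. The 11 not called ran from -0.27 for Dusp28 to 0.20 for Dusp18. Of these 11, Dusp3, Dusp11, Dusp12, Dusp18 and Dusp26 were called higher in N18 without normalization (0.47 to 0.68) and relative to the seminal proteins (0.50 to 0.71), and Dusp19 only relative to the seminal proteins among the scalings (0.28). Dusp11 changed sign there, from -0.07 ± 0.14 to 0.54 and 0.57.

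**Figure D3:**
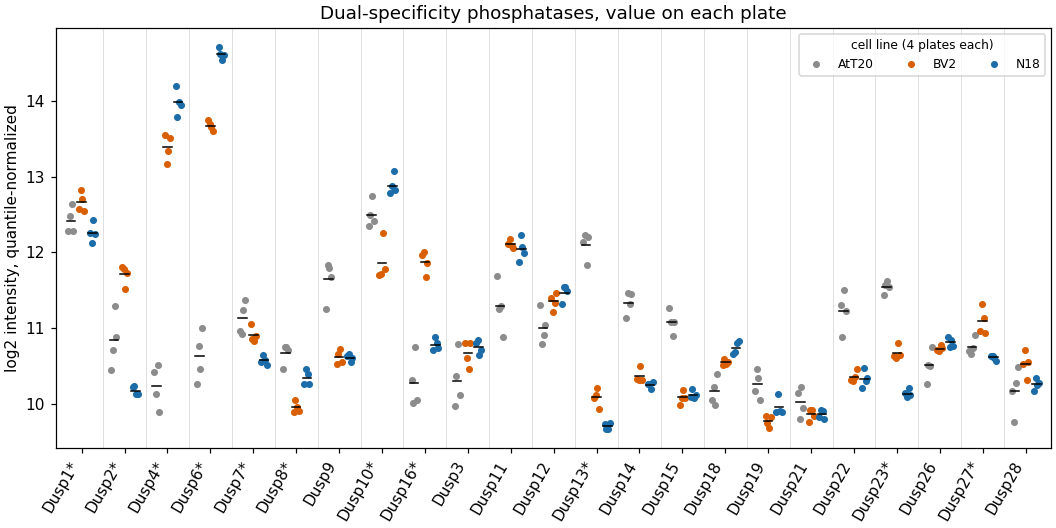
Quantile-normalized log2 intensity (y axis) of the 23 dual-specificity phosphatases on each of 12 plates, with grey, orange and blue points for AtT20, BV2 and N18, a black line for the mean of 4 plates, and an asterisk on genes called between N18 and BV2. The MAP kinase phosphatases stand at the left (Dusp1 to Dusp16), where Dusp4 and Dusp6 are highest in N18 and lowest on the plates labelled AtT20, and Dusp2 and Dusp16 are highest in BV2.

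How the arrays were scaled moved the split between the lines. After quantile normalization 36 members were called, 17 higher in N18 and 19 higher in BV2. Without normalization 33 were called, 26 and 7, of which 24 were among those 36. Relative to the seminal proteins 36 were called, 29 and 7, of which again 24 were among the first 36. Every call gained under either scaling was higher in N18. The same shift was seen over all genes and targets, of whose calls 46.5% were higher in N18 after quantile normalization, 80.2% without normalization and 74.7% relative to the seminal proteins, with medians of -0.06, 0.15 and 0.18. Of the 36 members, 21 were called with the same sign under all 16 refits. Of these, 15 were higher in N18, among them Mapk3, Mapk4, Mapk9, Mapk10, Mapk11, Mapk12, Map3k3, Map3k4, Map3k5, Map3k13, Map4k4, Dusp6, Dusp8 and Dusp10. The 6 higher in BV2 were Map2k6, Map3k8, Map3k20, Dusp2, Dusp16 and Dusp23.

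**Figure D4:**
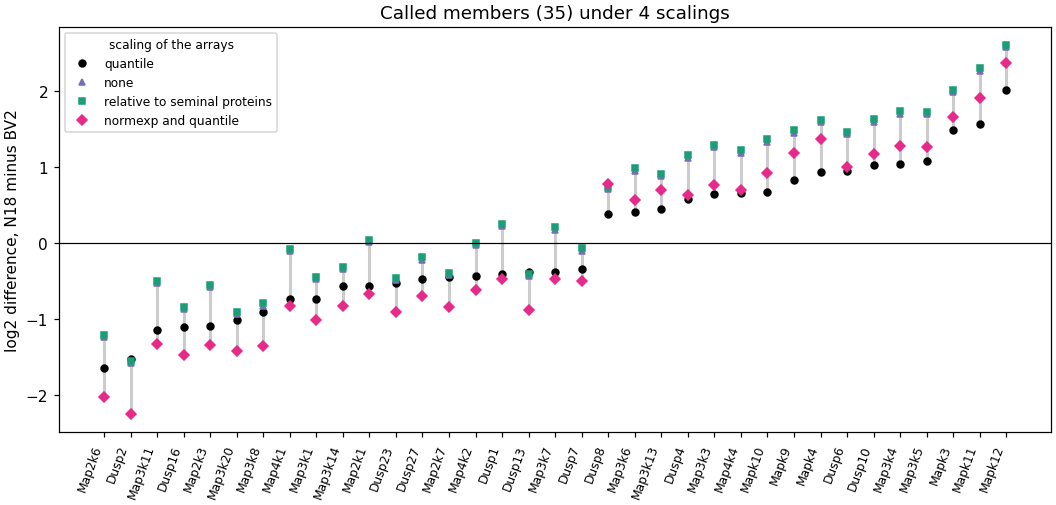
Log2 difference between N18 and BV2 (N18 minus BV2, y axis) of 35 of the 36 called members under 4 scalings of the arrays, with a grey line from the lowest to the highest value of a gene (black circle quantile, triangle none, green square relative to the seminal proteins, pink diamond normexp and quantile, the triangles lying mostly under the squares). Members higher in N18 stay above 0 under all 4, whereas Dusp1 (0.22 and 0.25) and Map2k1 (0.02 and 0.05) cross 0 without normalization and relative to the seminal proteins, as does Map3k7 (0.18 and 0.21), and Map4k2 reaches 0.00 relative to the seminal proteins.

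The start regions of the members were rich in G and C. The set of promoter sequences used here covered 48 of the 61 members, and a member missing from it can still have a start in RefSeq. The 250 bases before the start had a median GC content of 64.0%, against 52.0% over 27025 promoters of the same length. A GC box was found on either strand in 32 of the 48 (66.7%, against 32.9% of all promoters), a CRE (TGACGTCA) in 3 (6.25%, against 1.62%), an E-box in 4 (8.33%, against 6.05%), an AP-1 motif in 2 (4.17%, against 6.87%) and a PU.1 motif (GAGGAAGT) in 1 (2.08%, against 2.44%). Of the members called higher in N18 that were in the set, 7 of 12 held a GC box, and of those higher in BV2, 10 of 18. The 27025 promoters were not limited to genes on the arrays or by type of gene, and the part of this in the contrast with the members was not tested. A match is a description of the letters, not a binding site.

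Expression was next asked for each line on its own, with the threshold of the study's statistical methods. The level of a gene is its log2 intensity minus the mean of the 10 seminal protein genes on the same plate, and a gene was detected where the mean of 4 plates exceeded 2 SD of the seminal proteins. The thresholds were 0.37 for AtT20, 0.56 for BV2 and 0.74 for N18. In BV2, 44 of the 61 members were detected (72.1%, against 53.3% of all genes and targets), in N18 43 (70.5%, against 55.4%), and on the plates labelled AtT20 30 (49.2%, against 35.0%). All 3 lines shared 24 members, among them Mapk3, Mapk7, Mapk8, Mapk10, Mapk11, Map2k1, Map2k3, Map2k5 and Map2k6. A further 16 were detected in BV2 and N18 and not on the plates labelled AtT20, among them Mapk6, Mapk9, Mapk12, Mapk14, Dusp4 and Dusp6.

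Detection in 1 line alone was found for 11 members. In N18 these were Mapk4 at a level of 2.05 ± 0.31 (SD, n = 4 plates), Map3k13 at 1.31 ± 0.22 and Map3k12 at 0.96 ± 0.21. In BV2 they were Dusp2 at 1.89 ± 0.34, Map3k20 at 1.43 ± 0.19 and Map3k8 at 1.35 ± 0.21. Map3k20 and Map3k8 were just under the threshold on the plates labelled AtT20, at 0.34 and 0.35, with 3 and 2 of 4 plates above it. After quantile normalization Map3k8 was not called between BV2 and AtT20 (0.13 ± 0.13). Nor was Map3k13 between N18 and AtT20 (0.02 ± 0.11), whereas Mapk4, Map3k12, Dusp2 and Map3k20 were called against AtT20. On the plates labelled AtT20 they were Map2k7 at 1.62 ± 0.52 (1 of 3 probes above the threshold), Dusp13 at 1.14 ± 0.48, Mapk13 at 0.69 ± 0.21, Dusp14 at 0.48 ± 0.28 (1 of 3 probes) and Dusp22 at 0.41 ± 0.08. Of these 5, Dusp14 and Dusp22 had levels in BV2 and N18 (0.38 to 0.57) that were much like their own on the plates labelled AtT20, and they passed in AtT20 where the threshold was lower. Mapk13 was at 0.63 ± 0.10 in N18, just under the threshold of that line. Dusp23 was detected in BV2 and on the plates labelled AtT20, and 9 members were detected in no line (Mapk15, Map2k2, Map3k9, Map3k21, Dusp8, Dusp15, Dusp19, Dusp21 and Dusp28). With the olfactory receptor genes as controls, the count fell in every line, to 18 members for AtT20, 31 for BV2 and 32 for N18. Requiring at least 2 probes above the threshold gave 20, 40 and 41 members in the same order. The shares of all genes and targets under these settings are not given here.

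Compared with the plates labelled AtT20, the ERK phosphatases Dusp6 and Dusp4 had the largest differences toward BV2 and toward N18. These comparisons share the AtT20 arrays, so their values are given side by side and not counted as 2 pieces of evidence. Between BV2 and AtT20, 49 of the 61 members were called, against 73.6% of all genes and targets. Of these, 24 were higher in BV2 (26.6% of all) and 25 higher on the plates labelled AtT20 (47.0% of all). Between N18 and AtT20, 50 were called, against 76.4% of all, with 23 higher in N18 (27.8% of all) and 27 higher on the plates labelled AtT20 (48.6% of all). The split turned with the scaling. Without normalization 8 members were called higher in BV2 and 36 higher on the plates labelled AtT20, and relative to the seminal proteins 38 and 9. For N18 these counts were 18 and 29 without normalization, and 43 and 4 relative to the seminal proteins. The median over all genes and targets moved with it, from -0.23 to -1.08 and 0.28 for BV2, and from -0.25 to -0.85 and 0.54 for N18. Only members with the same sign under the 4 scalings are therefore described, which were 30 of 61 for BV2 (28 of them called) and 31 of 61 for N18 (27 called). After quantile normalization the 10 seminal protein genes were themselves called higher on the plates labelled AtT20. These calls were 6 against BV2 and 8 against N18, with 0 the other way and medians of -0.34 and -0.42 (line minus AtT20). The part of this in the members' differences toward AtT20 was not tested.

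Dusp6 was at 10.27, 10.77, 10.47 and 11.01 on the plates labelled AtT20, below all plates of both other lines, and was not detected there. It was at least 4.2-fold higher in BV2 (limma, adjusted p = 1.1e-11) and at least 10.2-fold higher in N18 (limma, adjusted p = 5.7e-13). Dusp4 was at 10.43, 10.13, 10.51 and 9.89, was not detected either, and was at least 3.5-fold higher in BV2 (limma, adjusted p = 1.7e-11) and at least 6.5-fold higher in N18 (limma, adjusted p = 2.4e-12). Mapk6 ran from 10.75 to 11.26 on the plates labelled AtT20 and was at least 2.4-fold higher in BV2 and at least 2.5-fold higher in N18. Mapk12 ran from 10.32 to 11.46 on those plates and was at least 4.1-fold higher in N18 (limma, adjusted p = 1.0e-08). Mapk3 ran from 11.21 to 12.36 on those plates, a wide spread, and its difference from N18 was 2.08 ± 0.21 (N18 minus AtT20). Dusp16 was at least 1.2-fold higher in BV2, and Map4k1 was higher there with a difference of 1.59 ± 0.14 (BV2 minus AtT20).

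In the other direction, the JNK-activating kinase Map2k7 was at 12.13, 12.66, 12.72 and 12.89 on the plates labelled AtT20, above all BV2 and N18 plates. It was at least 2.0-fold higher there than in BV2 (limma, adjusted p = 1.3e-09) and at least 1.8-fold higher than in N18 (limma, adjusted p = 1.3e-10). Of its 3 probes 1 was above the threshold on these plates, and with the median of the probes its differences moved from -2.15 to -0.70 for BV2 and from -2.59 to -0.998 for N18 (line minus AtT20), both still called. Dusp13, an atypical phosphatase, was at 12.14, 12.23, 11.83 and 12.21 and was at least 1.4-fold higher than in BV2 and at least 1.3-fold higher than in N18, with 3 of its 6 probes above the threshold. Map2k5 ran from 13.11 to 13.59 on the plates labelled AtT20, with a difference of -1.82 ± 0.12 for BV2 and -2.01 ± 0.12 for N18 (line minus AtT20). Map3k2, an upstream kinase of that branch, ran from 12.74 to 13.29, with a difference of -2.06 ± 0.13 for BV2 and -2.01 ± 0.13 for N18. Relative to the seminal proteins, the N18 differences of Map2k5 and Map3k2 were -0.37 and -0.42 and were not called, and their BV2 differences were -0.68 and -0.92. Map3k1 ran from 12.69 to 13.35, with a difference of -2.16 ± 0.15 for N18, which was -0.75 relative to the seminal proteins. Of the 12 corticotroph markers 2 were above the threshold on these plates, and the mean level over the 12 genes ran from 0.11 to 0.30 per plate there, from 0.17 to 0.22 in BV2 and from 1.74 to 1.95 in N18. The part of this in the differences was not tested.

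The genes around the cascade were then compared between N18 and BV2 from 7 lists. The counts of every list are to be read beside the 40.9% of all genes and targets that were called. Of all genes and targets, 19.0% were called higher in N18 and 21.9% higher in BV2. Whether a list differs from all genes and targets was not tested. Of the Sprouty and Spred inhibitors, feedback brakes on the path from Ras to ERK, 6 of 8 were called, each higher in N18, with a median difference of 1.38. Spry1 was at 10.37, 10.25, 10.31 and 10.27 in BV2 and at 13.52, 13.60, 13.46 and 13.53 in N18, and was at least 8.0-fold higher in N18 (limma, adjusted p = 3.3e-13). Spred2 ran from 12.29 to 12.90 in BV2 and from 14.80 to 15.11 in N18, a difference of 2.30 ± 0.14. Spry2, Spry4, Spred1 and the Raf inhibitor gene Pebp1 were the other 4, with differences from 0.64 to 1.89. Both other genes of the list, Spry3 and Spred3, were not called.

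The inputs from Ras and Raf and the scaffolds of the cascade were split. Of 25 genes of the Ras and Raf list, 12 were called, 7 higher in N18 and 5 higher in BV2, with a median of 0.00. Rras2, a Ras-like small G protein, was below the threshold in BV2 and at least 3.1-fold higher in N18 (limma, adjusted p = 4.1e-10). Of 19 scaffolds and adaptors, 5 were called in each direction. The JNK scaffolds Mapk8ip2 and Mapk8ip1, known from neurons, led toward N18, with a difference of 3.06 ± 0.12 for Mapk8ip2 and a level at least 5.6-fold higher for Mapk8ip1. A further JNK scaffold gene, Mapk8ip3, which was chosen after its value was seen, was called at 1.33 ± 0.14.

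Among the kinases that MAP kinases activate, Mapkapk2 was far higher in BV2 and Rps6ka2 far higher in N18. Mapkapk2, the p38-activated kinase that stabilizes cytokine transcripts, was at 14.26, 14.23, 14.26 and 14.11 in BV2 and at 11.38, 11.46, 11.53 and 11.61 in N18, a difference of -2.72 ± 0.12 (limma, adjusted p = 2.5e-11). The ERK-activated kinase gene Rps6ka2 was at 10.87, 10.93, 11.00 and 10.96 in BV2 and at 13.48, 13.45, 13.37 and 13.43 in N18, a difference of 2.49 ± 0.10 (limma, adjusted p = 7.7e-12). In both genes the lines were separated by many times the spread of the plates. Over the 11 genes of the list, 3 were higher in N18 and 5 higher in BV2.

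Among 26 transcription factors and early genes downstream of the cascade, 5 were higher in N18 and 8 higher in BV2. Atf3, a stress-induced factor, was at 15.27, 15.27, 15.24 and 15.02 in BV2 and at 11.12, 11.39, 11.40 and 11.12 in N18, a difference of -3.94 ± 0.11 (limma, adjusted p = 7.6e-14). Junb, an AP-1 subunit, ran from 13.95 to 14.55 in BV2 and from 11.40 to 11.75 in N18, a difference of -2.70 ± 0.17. Fos (-1.16 ± 0.11) and Fosl1 (-1.82 ± 0.14) were also higher in BV2, whereas the ERK-induced factors Etv4 (1.99 ± 0.12) and Etv5 (1.80 ± 0.13) were higher in N18. Egr1, an early gene of the ERK branch, was at least 2.4-fold higher in N18. The last 5 genes named were chosen after their values were seen.

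Other kinases of the STE20 and MAP kinase group (11 measured) had 4 called higher in N18 and 3 higher in BV2. Pak2 was at -1.11 ± 0.15 and Mink1 at 0.94 ± 0.17, and Pak2 was not called without normalization (-0.51) or relative to the seminal proteins (-0.48). Of 10 other phosphatases of MAP kinases, 5 were higher in N18 and 2 higher in BV2. The blood cell phosphatase gene Ptpn7 was at least 1.6-fold higher in BV2, and Ppp2ca, a catalytic subunit of PP2A, was at 0.96 ± 0.12. Without normalization, and likewise relative to the seminal proteins, 0 of the 11 STE20 group kinases were called higher in BV2 and 6 higher in N18. Under both, 8 of 8 Sprouty and Spred genes were called higher in N18. All genes and targets shifted toward N18 as well, from a median of -0.06 to 0.15 and 0.18. The part of this shift in the list counts was not tested, and the other lists are not counted under these scalings here.

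**Figure D5:**
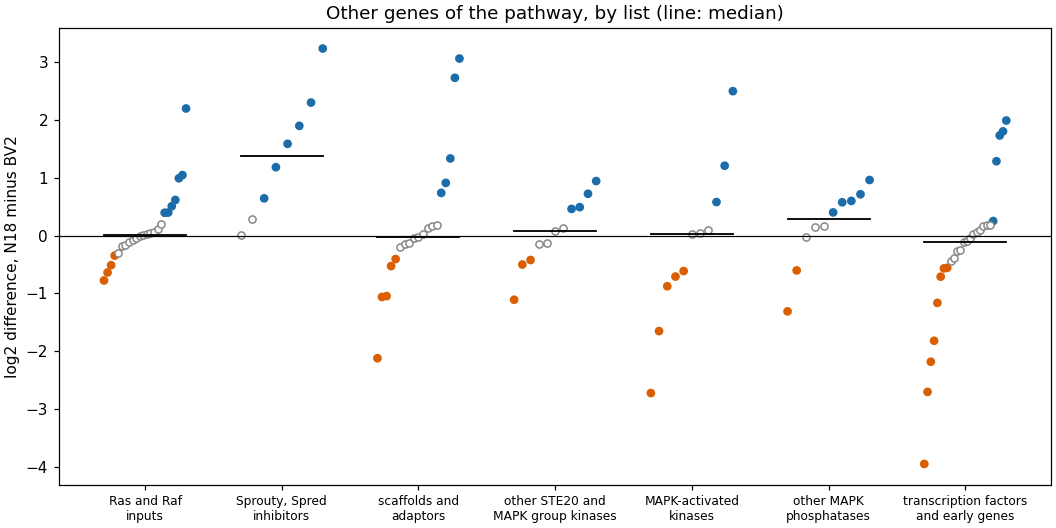
Log2 difference between N18 and BV2 (N18 minus BV2, y axis) of the genes of 7 lists around the cascade, 1 point per gene (all but 1 of the measured genes) and a black line for the median of a list over all its measured genes. Filled blue points were called higher in N18, filled orange points higher in BV2 and open points were not called; the Sprouty and Spred list has its median at 1.38 and no gene below 0, and the lowest points are Atf3 (-3.94), Mapkapk2 (-2.72) and Junb (-2.70).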

How the data were processed

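Each of the 12 arrays carried 72000 probes, and the authors deposited the Cy3 intensities as log2 values. No background subtraction or normalization between arrays was found in them. Symbols came from RefSeq transcript accessions and matched 69.4% of 25631 targets. Arrays were quantile-normalized, the probes of a target averaged on the linear scale and returned to log2, and the targets of a gene averaged (4 members had 2 or more). All 12 arrays entered a single limma fit without a block (version 3.58.1, R 4.3.3, lmFit, eBayes with trend), and Benjamini-Hochberg adjustment ran over 25128 genes and targets. Where a line was below the detection threshold, a fold is a lower bound from that threshold, the smallest over quantile-normalized, seminal-relative and unnormalized values, and no fold is given where both lines were below it.

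The genes of the Mapk, Map2k and MAP kinase phosphatase families were named, with the members of largest difference, those detected in 1 line, and the 2 called genes of largest difference from each pathway list. Other members were named to complete a family. The members and lists were chosen with earlier results of these data known. At least 2 probes above the threshold, and the alternatives for the members and pathway genes outside this rule, were chosen after seeing the data. Of genes changed by 1 on the log2 scale in simulated data (N18 against BV2, 25128 genes), 92.5% were recovered, and of those changed by 0.5, 26.5%. Only a small share of the genes was changed in the simulation, whereas 40.9% were called between N18 and BV2 in the data. The simulated shares therefore do not give the recovery in the data themselves. Tables used Python 3.11.15, numpy 2.4.6 and pandas 2.3.3. Results for 2 genes that the rule named are not reported here and not drawn, though counts and medians include them. Human arrays of HEK293 cells and the qPCR values are not analysed here.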

Additional observations from a re-analysis of the deposited data

Results flagged for a closer look

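A single plate lay far from the other 3 of its line for 7 of 183 sets of 4 plates (3.83%), by Dixon's ratio of the gap to the range, where chance gives about 1 in 20. Dusp10 was at a log2 intensity of 12.25 on BV2 plate 3, against 11.70 to 11.78 on the others. The N18 plates were all above that value, and Dusp10 stayed called without that plate. Dusp14 was at 10.50 on the same BV2 plate, against 10.32 to 10.33. Map3k20 was at 11.28 on BV2 plate 4, against 11.33 to 11.34, and Map3k8 was at 10.28 on N18 plate 1, against 10.35 to 10.36, gaps that are small beside the differences between the lines. Dusp19 was at 10.13 on N18 plate 2, against 9.89 to 9.91, and was below the detection threshold. On the plates labelled AtT20, Dusp8 was at 10.47 on plate 1, against 10.72 to 10.75, and Map3k13 was at 10.55 on plate 3, against 10.88 to 10.95.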

How the results depend on the processing

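With a log2 difference of at least 1 required, 12 members were called between N18 and BV2 (6 in each direction), 15 between BV2 and AtT20 and 20 between N18 and AtT20. The share over all genes and targets was not counted with this requirement, so these counts do not tell whether the members differ from the rest. With olfactory receptor genes as controls, fewer members were detected in every line (18 for AtT20, 31 for BV2 and 32 for N18). The difference between N18 and BV2 changed sign for 12 members without normalization and for 13 relative to the seminal proteins. Among those called under either setting compared, these were Dusp1 (0.22 and 0.25), Map2k1 (0.019 and 0.049), Map3k7 (0.18 and 0.21) and Dusp11 (0.54 and 0.57, called only there), in that order of settings, and Map4k2 relative to the seminal proteins (0.0010). The others were called under neither scaling nor after quantile normalization of the 12 arrays. Without normalization 12 calls were lost and 9 gained, and relative to the seminal proteins 12 were lost and 12 gained. The cause was not tested. The split of calls also moved with the median of the probes, to 16 and 11 for N18 against BV2 and to 22 and 16 for N18 against AtT20, and with only genes above the threshold in at least 1 line, to 23 and 18 for N18 against AtT20.

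Without each plate in turn, 32 to 35 members were called between N18 and BV2, 43 to 51 between BV2 and AtT20 and 49 to 51 between N18 and AtT20, and 28 to 32, 42 to 45 and 43 were detected in AtT20, BV2 and N18. The counts of calls under the other alternatives lay within 1.5 times those reported. With the replicate number as a replicate block, 36, 48 and 50 members were called in the same order of pairs. Plates of the same number deviated from their group means with correlations of -0.11 to 0.32, of which 3 of 12 were over 0.1. Plates of different numbers gave -0.49 to 0.36, with 7 of 36 over 0.1. With so few plates per line, each measured from the mean of its own line, these correlations cannot tell whether plates of a number shared a step. Quantile normalization gives every array the same distribution, and signal over background limits what can be told of genes near the threshold. Members called with neither line above the threshold were 3 of 36 between N18 and BV2, 9 of 49 between BV2 and AtT20 and 10 of 50 between N18 and AtT20.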
